A study of Zea mays with 4 samples.

Results

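Opaque11 (O11) is a maize transcription factor, and the places it occupied in the sparse interior stretches of the 10 numbered chromosomes are described here. An interior site is a peak of the replicate 1 list that overlaps a replicate 2 peak by at least 1 bp and whose summit, the base of highest coverage, lies at a relative position of at least 0.30 and under 0.55 along its chromosome. Chromosome length was taken as the highest peak end in either list. By this rule 918 of the 9856 shared sites on chromosomes 1 to 10 were interior, and the other 8938 are called the rest. The rule used position and overlap and set no threshold on pileup, fold enrichment, length or summit distance. Overlap is still not independent of these measures, since it limits how far apart paired summits can lie. Shared interior peaks of replicate 1 had a median length of 392.5 bp and pileup of 25, and unshared ones 290 bp and 17.

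Basic helix-loop-helix proteins such as O11 bind DNA as dimers through short sites of the E-box class, and O11 is known as a regulator of endosperm development and of storage compound synthesis in the kernel. In maize the central stretches of the chromosomes, around the centromeres, are poor in genes and rich in nested retrotransposons, while genes are dense towards the arm ends. The interior band is a fixed fraction of length, and no centromere position was used to draw it. Gene content and base sequence at the sites were not analysed here.

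Whole kernels were collected 15 days after pollination from plants labelled wildtype (WT) and from plants labelled mutant (o11/o11), which the labels describe as having no accumulation of O11 protein. Neither the inbred background nor the nature of the mutant allele is stated in the labels. Chromatin of both genotypes was precipitated with the same rabbit antibody against recombinant full-length O11 and sequenced (ChIP-seq), giving 2 WT and 2 o11 libraries. The kernel holds several tissues, so a site may come from any of them. The labels call the 2 replicates independent and made at different times, and each contributed 1 peak list, made from its WT library with its own o11 library as the control. Per the submitters' processing notes the build is B73 RefGen_v3, and all positions are 1-based.

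Pileup is the WT coverage stacked over a summit. The o11 background is the control level behind the authors' fold enrichment, read as (pileup + 1) divided by (background + 1). Its lowest value was 1.62 in replicate 1 and 0.781 in replicate 2. In replicate 1 this lowest value recurred at sites of different chromosomes, so a background at the floor need not be the local coverage. Pileup came in whole steps of 1 in replicate 1 and in steps of 0.857 in replicate 2, so WT coverage was scaled in replicate 2. Levels are therefore not compared between replicates as amounts, and the depth of each library is unknown. Fold enrichments are the authors' own values per peak. With 2 lists an exact two-sided test over replicates cannot give a p below 0.5, and sites of 1 library are not replicates. Differences between the interior and the rest are therefore given within each replicate, with the number of chromosomes that show the direction and no p-value.

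The strongest interior sites are named by the product of their folds in both replicates. That they stood far above the o11 control in both follows from this choice. A 741 bp region of chromosome 5, from 92757489 to 92758229, had the highest product of folds. In replicate 1 a WT pileup of 61 stood over an o11 background of 1.89. In replicate 2 the WT pileup was 103.68 and the o11 background 2.0. The fold enrichment was 21.5 in replicate 1 (exact Poisson 95% interval 16.5 to 27.5) and 34.9 in replicate 2 (29.0 to 41.6). Its replicate summits were 38 bp apart. Intervals here and below treat the background as fixed and cover counting error only. They do not allow for the picking of sites by their high folds.

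A second region of chromosome 5, from 79889027 to 79889574, carried the highest replicate 2 fold of any interior site, 42.7 (34.4 to 52.5), against 15.9 (11.8 to 20.9) in replicate 1. Its WT pileups were 49 and 75.41, over o11 backgrounds of 2.15 and 0.788. The replicate 2 background was close to the lowest of that list, 0.781, so this fold rests on a near-floor control. Chromosome 6 held 3 of the 10 interior sites with the highest products. The region from 91399726 to 91400402 had WT pileups of 83 and 105.4 and folds of 18.9 and 34.5 in replicates 1 and 2. Folds of 15.9 and 36.6 were recorded from 87687948 to 87688705, a site whose nearest other shared summit was 683 kb away. At 65460208 to 65461005 the folds were 17.2 and 29.4, and the summits of the replicates were 2 bp apart. The o11 backgrounds of these 3 sites stayed between 1.53 and 3.44.

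Of the remaining 5 of these 10 sites, chromosome 1 held 2. The first, from 90890683 to 90891294, was enriched 21.0 times in replicate 1 (16.3 to 26.6) and 23.1 times in replicate 2 (18.0 to 29.3). The second, from 98433017 to 98433554, had 12.8 and 33.8. Chromosome 2 contributed the region from 74715801 to 74716256, with folds of 13.6 and 39.0 and the largest replicate 2 pileup of the 10, 125.11. On chromosome 8 the region from 73807722 to 73808286 reached 12.7 and 34.5, and on chromosome 4 the region from 96335927 to 96336408 reached 12.2 and 30. Among all 9856 shared sites these 10 ranked from 30 to 167 by product of folds. Interior sites made up 7 of the 100 highest products and 76 of the 1000 highest, which is 7.60%, and 9.31% of all shared sites.

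Interior sites were sparse on every chromosome. They were chosen as the sparse part with earlier results of these data known, so the density values describe that choice and do not test it. The band held 1.78 sites per Mb and the rest 5.79 per Mb when the replicate 1 rows were counted, and 1.80 and 5.91 per Mb with the replicate 2 rows. This is a log2 density ratio of -1.71 ± 0.013 (SD, n = 2 lists). Both counts use the same overlaps, so the small SD is not an independent replicate spread. With all peaks of a single list, shared or not, the log2 ratio was -1.44 in replicate 1 and -1.48 in replicate 2. The density was lower inside the band on 10 of 10 chromosomes in either list. The first and last 5% of the chromosomes held 8.76 shared sites per Mb.

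**Figure D1:**
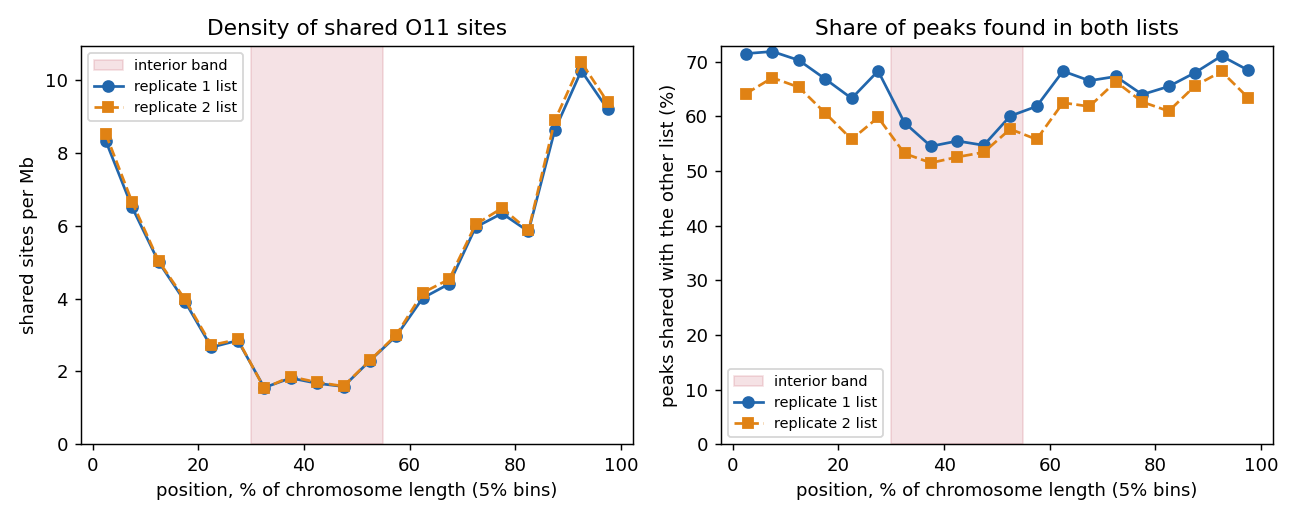
Shared sites per Mb (left) and the percentage of peaks shared with the other list (right) in bins of 5% of chromosome length, summed over the 10 chromosomes. Lines are the 2 lists and the shaded band is the interior. Density was lowest in the first interior bin, at 1.56 per Mb in replicate 1 rows, and was 8.33 per Mb in the first and 9.20 per Mb in the last bin of the chromosomes.

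Within the band the density was nearly flat and climbed at its far edge. The bins from 0.30 to 0.50 held 1.56, 1.82, 1.67 and 1.58 sites per Mb in replicate 1 rows, and the bin from 0.50 to 0.55 held 2.29. The next bin outside, from 0.55 to 0.60, held 2.97, and the bin from 0.25 to 0.30 held 2.85. Just inside 0.30 lay sites of chromosomes 2 and 4 with replicate 1 pileups of 21 and 24, and just outside it 2 sites of chromosome 1 with 20 and 16. Just inside 0.55 were sites of chromosomes 7 and 10 with 20 and 13, and just outside sites of chromosomes 10 and 8 with 19 and 17.

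Chromosomes differed in how empty their interiors were. Chromosome 7 had the fewest sites, 37, at 0.838 per Mb inside and 5.97 per Mb in the rest, a ratio of 0.140. Chromosome 10 had the densest interior, 98 sites at 2.62 per Mb inside and 4.70 in the rest, a ratio of 0.558. The ratio was 0.450 on chromosome 6 and 0.434 on chromosome 8, 0.370 and 0.393 on chromosomes 5 and 4, and between 0.213 and 0.255 on chromosomes 1, 2, 3 and 9. Counted from replicate 2 rows these ratios ran from 0.138 on chromosome 7 to 0.554 on chromosome 10. Chromosome 4 stood at 1.54 per Mb inside, close to chromosomes 3 and 9, and its ratio was higher because its rest was the sparsest of the 10, at 3.92 per Mb.

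**Figure D2:**
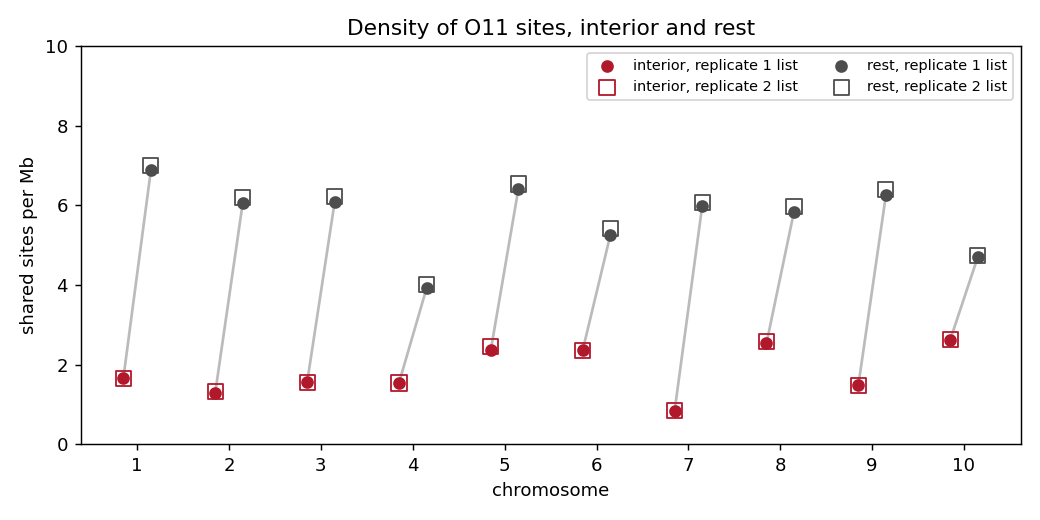
Shared sites per Mb inside the interior band (left point of each pair) and in the rest of the same chromosome (right point). Filled circles count replicate 1 rows and open squares replicate 2 rows. All 10 interior values, from 0.838 to 2.62 per Mb in replicate 1 rows, lie below all 10 values of the rest, from 3.92 to 6.89.

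Neighbouring interior sites were typically far apart. Fewer sites per Mb by itself means longer gaps, so the spacing values here and below are not separate from the lower density. The median distance between successive interior summits was 299 kb (quartiles 75.2 and 663 kb, n = 908 gaps), against 77.1 kb (10.6 and 208 kb, n = 8918) in the rest. With replicate 2 summits these medians were 297 and 74.0 kb. The interior median rests on requiring both lists: with all peaks of 1 list it was 157 kb in replicate 1 and 169 kb in replicate 2. The interior median was longer on 10 of 10 chromosomes. Gaps over 1 Mb made up 14.6% of the interior gaps (133) and 2.1% of those in the rest (187). Of 505 whole 1 Mb windows inside the band, 144 held no interior site, and the fullest held 9. Below, empty means without a shared site, and such windows and stretches can still hold peaks of 1 list.

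Close neighbours also occurred in the interior, though they formed a smaller share of the gaps. Successive summits were within 5 kb in 78 of 908 interior gaps, 8.59% (Wilson 95% interval 6.94 to 10.6), beside 18.0% (17.2 to 18.8) in the rest and 17.1% over all shared sites. With replicate 2 summits the shares were 9.29% in the interior and 19.7% in the rest. Of the 78 close interior gaps, 44 were under 2 kb. Between 5 and 50 kb lay 11.5% of the interior gaps and 23.7% of those in the rest. Wilson intervals treat gaps as independent, which neighbouring sites are not.

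**Figure D3:**
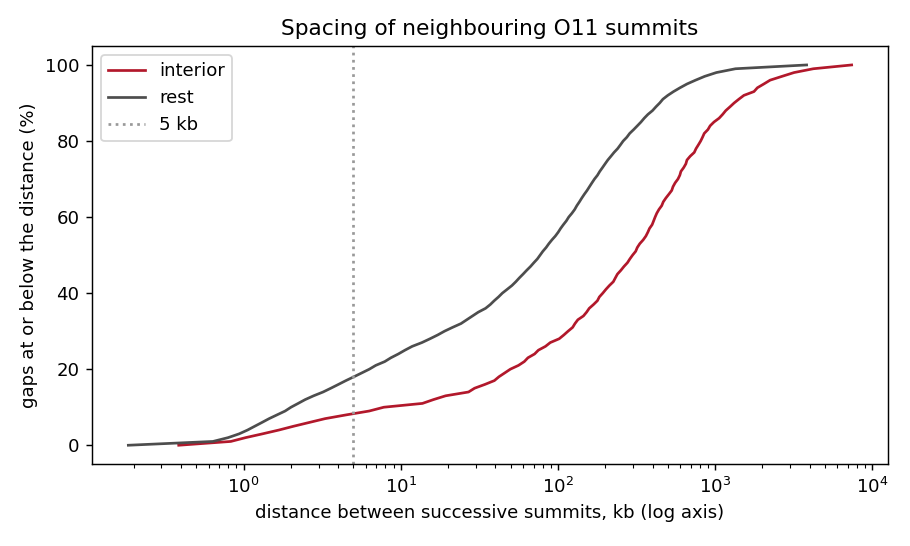
Cumulative percentage of gaps (y axis) against the distance between successive summits in kb on a log axis (x axis), for interior sites and the rest, from replicate 1 summits. The interior curve lies to the right, with a median of 299 kb against 77.1 kb, and 8.59% of its gaps are within 5 kb.

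Sites with no close neighbour were a larger share of the interior, which is likewise not separate from its lower density. No other shared summit lay within 50 kb of 594 interior sites (64.7%) and of 3267 sites in the rest (36.6%). Beyond 500 kb from any other shared summit were 126 interior sites (13.7%) and 147 in the rest (1.64%). These 126 sites had median WT pileups of 24 and 27.42 and median folds of 5.54 and 8.87 in replicates 1 and 2. Their summits agreed to a median of 37.5 bp, and 84.9% were within 100 bp. For the 150 interior sites with a neighbour within 5 kb, the median pileups were 25 and 28.7, the folds 6.56 and 8.56, and the summit distance 52.5 bp. In the rest, summit distances were likewise 37 bp beyond 500 kb and 50 bp within 5 kb.

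The WT pileup of interior sites was close to that of the rest. Its median was 25 in the interior (quartiles 21 and 33) and 25 in the rest (20 and 32) in replicate 1, and 28.28 (21.42 and 39.42) and 27.42 (19.71 and 37.7) in replicate 2. The log2 difference averaged 0.022 ± 0.032 (SD, n = 2 replicates), less than the spread between replicates. The medians were equal in replicate 1 and on neighbouring steps of pileup in replicate 2. The difference and its SD are therefore no finer than the steps in which pileup is recorded. By chromosome the interior median was higher on 8 and lower on 2 in replicate 1, and higher on 8, lower on 1 and equal on 1 in replicate 2 (medians within 0.005 on the log2 scale counted as equal). With all peaks of replicate 1, shared or not, the difference was -0.067. Given the steps of pileup, no direction is read from these values.

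The o11 background under interior sites was higher in replicate 1. Its median there was 3.55 in the interior and 3.03 in the rest, a log2 difference of 0.23, and the interior was higher on 10 of 10 chromosomes, by 0.043 to 0.30. In replicate 2 the medians were 2.01 and 2.0, a difference of 0.0093, with the interior higher on 6 chromosomes and equal on 4. The difference averaged 0.12 ± 0.16 (SD, n = 2), within the spread between replicates. It was present in all 4 pileup classes of both replicates: in the highest class, for example, the interior and rest medians were 3.77 and 3.40 in replicate 1 and 2.25 and 2.13 in replicate 2. A background of 10 or more lay under 13 interior sites (1.42%) and 41 in the rest (0.459%) in replicate 1, and under 7 (0.763%) and 17 (0.190%) in replicate 2.

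Fold enrichment, which combines both quantities, had medians of 5.93 in the interior and 6.17 in the rest in replicate 1, and of 8.93 in each part in replicate 2. The log2 differences were -0.057 and 0.0011, averaging -0.028 ± 0.041 (SD, n = 2), less than the spread between replicates. The interior was lower on 8 of 10 chromosomes in replicate 1 and on 5 of 10 in replicate 2. Fold was higher in replicate 2 than in replicate 1 at 768 interior sites, 83.7%, beside 82.5% of all shared sites.

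Interior peaks were shorter. The median length was 392.5 bp in the interior (quartiles 313.25 and 516) and 431 bp in the rest (328.25 and 592) in replicate 1, and 380 bp (311.25 and 489) and 407 bp (316 and 547) in replicate 2. The log2 differences were -0.13 and -0.099, averaging -0.12 ± 0.025 (SD, n = 2), larger than the spread between replicates. This and the other SDs over the 2 replicates use the same paired sites, so they are not independent replicate spreads. With all peaks of a single list, shared or not, the length difference was -0.17 in replicate 1 and -0.091 in replicate 2. The interior median was lower on 9 of 10 chromosomes in replicate 1, where chromosome 5 was the exception, and on 8 of 10 in replicate 2, where chromosomes 8 and 9 were equal. Peaks of 1000 bp or more made up 2.72% of interior sites and 4.82% of the rest in replicate 1, and 1.85% and 3.09% in replicate 2. Against the first and last 5% of the chromosomes the log2 difference was -0.12 in replicate 1 and -0.081 in replicate 2.

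The length difference was not uniform over pileup classes. In the highest of 4 pileup classes the interior and rest medians were 478 and 549 bp in replicate 1, and 458 and 525 bp in replicate 2. The lowest class had 322 and 345 bp in replicate 1, and 313.5 and 309 bp in replicate 2, where the interior was not shorter. In both parts the shortest peak was 245 bp in replicate 1 and 213 bp in replicate 2. The lowest class lay closest to this floor, and whether the floor narrowed its difference was not tested. Spacing moved with it too. Among sites with no other shared summit within 50 kb the medians were 388.5 bp in the interior and 404 bp in the rest in replicate 1, and 376 and 389 bp in replicate 2, and the log2 difference averaged -0.053 ± 0.0052 (SD, n = 2), against -0.12 with all sites. The part of spacing and of the higher o11 background in the length difference was not tested further.

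**Figure D4:**
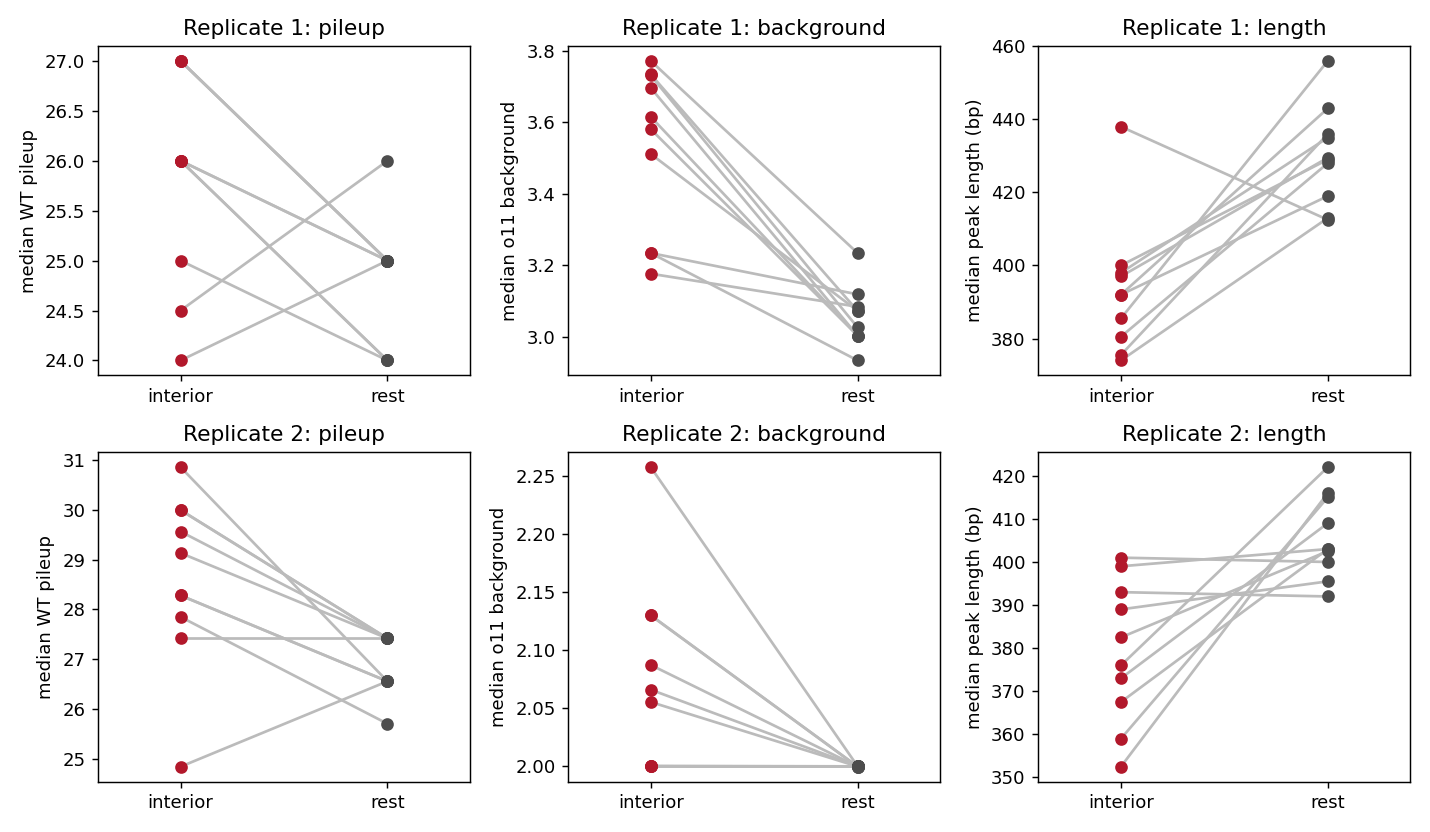
Median WT pileup, median o11 background and median peak length of interior sites (left in each panel) and of the rest (right), with 1 line per chromosome, for replicate 1 (top row) and replicate 2 (bottom row). The y axes do not start at 0. Peak length is lower inside on 9 of 10 chromosomes in replicate 1 and on 8 of 10 in replicate 2, and background is higher inside on 10 of 10 in replicate 1.

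The replicates placed the summits of interior sites close together. Their median distance was 40 bp (quartiles 19 and 80.75) in the interior and 43 bp (19 and 84) in the rest. Peaks had to overlap to be paired, which limits this distance in both parts. Within 100 bp were 756 of 918 pairs, 82.4% (Wilson 79.8 to 84.7), beside 80.8% (79.9 to 81.6) in the rest and 80.9% of all shared sites. Summits coincided to the base at 5 interior sites and were within 20 bp at 245. They were over 300 bp apart at 23 interior sites (2.51%) and at 3.30% of sites in the rest. In 2 of these 23 the replicate 2 partner was shared with a neighbouring interior site, and among the 914 sites with a partner of their own the largest distance was 657 bp. The shift had no side: the replicate 2 summit lay at the higher coordinate in 458 pairs and at the lower in 455. The interior median was shorter on 6 chromosomes and longer on 4, so the direction was mixed.

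Across the 918 interior sites the replicate pileups had a Spearman correlation of 0.683, the lengths 0.526, the folds 0.461 and the recovered backgrounds 0.376. In the rest these were 0.729, 0.552, 0.50 and 0.330. They are correlations across sites, which share their 2 library pairs, and are given as descriptions. Higher pileup went with longer peaks in the interior (Spearman 0.408 in replicate 1 and 0.462 in replicate 2).

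**Figure D5:**
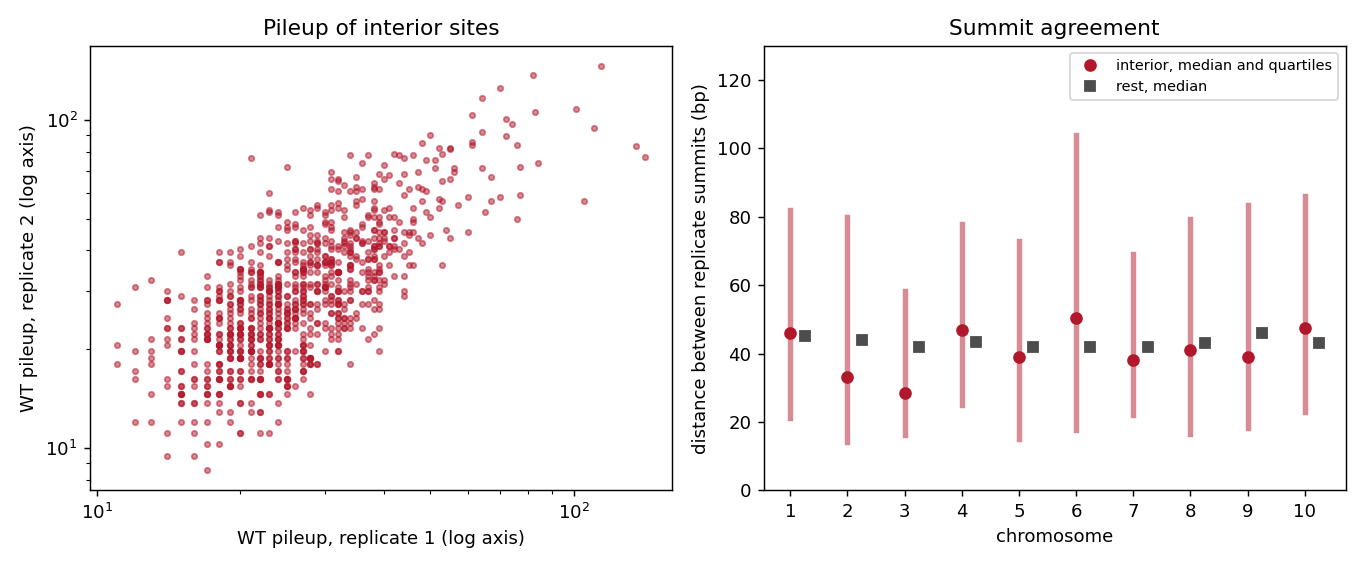
Left: WT pileup of each of the 918 interior sites in replicate 1 (x) and replicate 2 (y), both on log axes. Right: distance between replicate summits in bp by chromosome, with the interior median (circle) and quartiles (bar) and the median of the rest (square). Interior medians run from 28.5 bp on chromosome 3 to 50.5 bp on chromosome 6, and those of the rest from 42 to 46 bp.

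A smaller share of interior peaks than of peaks elsewhere was found in the other list. Of 1616 replicate 1 peaks in the band, 918 overlapped a replicate 2 peak, 56.8% (Wilson 54.4 to 59.2), beside 68.1% (67.3 to 68.9) of 13130 outside it and 66.8% overall. In the replicate 2 list 53.8% (51.5 to 56.2) of 1719 interior peaks were shared, beside 63.6% (62.8 to 64.4) of 14337 outside and 62.6% overall. The interior share was lower on 8 of 10 chromosomes in replicate 1 and on 10 of 10 in replicate 2. Within classes of similar fold it was lower in each of 4 classes of both lists. In the weakest class of replicate 1 it was 35.1% in the interior and 45.9% in the rest, and in the strongest 93.8% and 95.2%. The Wilson intervals of shares, including those of summit agreement and those by chromosome, treat peaks as independent, which peaks of 1 list are not. They are not a spread over replicates and give no test of a difference. Overlap with the other list is part of the rule that chose the sites, so the shares of peaks found in both lists describe what the rule kept. Unshared interior peaks had median pileups of 17 in replicate 1 and 17.99 in replicate 2, and absence from a list means only that the authors' threshold was not passed there.

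Chromosome 1 had 125 interior sites in its band, spaced by a median of 306 kb (quartiles 86.1 and 624), with 13 gaps within 5 kb and 16 over 1 Mb. Its longest stretch empty of shared sites was 5.87 Mb, from 129238261 to 135106869. The site at the upper edge of that stretch, from 135106472 to 135107109, was also the most isolated of the chromosome, 3038 kb from the next shared summit, with folds of 5.28 and 6.12. Median pileups were 27 and 27.42, median lengths 397 and 376 bp, and 80.0% of summits were within 100 bp. A pair of sites here, from 91880248 to 91880661 and from 91880916 to 91881654, overlapped the same replicate 2 peak of 1283 bp with a fold of 19.3. Its summit was 16 bp from that of the second site, which had a replicate 1 fold of 13.7, and 897 bp from that of the first, which had a fold of 2.89. The highest replicate 2 pileup of the interior, 145.67, was at 113656747 to 113657550, with folds of 13.5 and 22.4. The fullest 50 kb of its band held 3 sites, with summits from 156226296 to 156231805.

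Chromosome 2 had the lowest share of interior replicate 1 peaks that recurred, 77 of 206 or 37.4% (31.1 to 44.2), beside 63.3% in its rest. In the replicate 2 list 45.7% of its 173 interior peaks were shared. Without chromosome 2 the share over the other 9 was 59.6% in replicate 1. Its shared sites were spaced by a median of 407 kb (362 kb with replicate 2 summits), with 19 gaps over 1 Mb, the most of any chromosome, and a longest stretch of 4.21 Mb from 75190573 to 79402096. Pileups of 25 and 24.85 and lengths of 398 and 373 bp were its medians, and summits were a median of 33 bp apart with 84.4% within 100 bp. Its most isolated site, from 115525204 to 115525480, was 1885 kb from the next shared summit and had folds of 4.08 and 11.2. Its fullest 50 kb held 3 sites, the first such group with summits from 72787345 to 72835724 and peaks of 567 to 1009 bp in replicate 1. The lowest product of folds in the interior was also here, at 94141397 to 94141648, where WT pileups of 110 and 94.26 stood over o11 backgrounds of 57.5 and 43.0.

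Chromosome 3 had the closest summit agreement, a median of 28.5 bp over 90 sites with 86.7% within 100 bp (78.1 to 92.2), beside 42 bp in its rest. Only 3 of its 89 gaps were within 5 kb, the median gap was 399 kb, and its fullest 50 kb held 2 sites. The longest stretch ran 3.41 Mb from 98821676 to 102231487, and the site that ended it, from 102231279 to 102231713, was the strongest of the chromosome, with folds of 10.9 and 20.8 and summits 1 bp apart. Its most isolated site, from 80640092 to 80640413, was 2855 kb from any other and had folds of 8.49 and 8.93. Median pileups were 24.5 and 29.56 and median lengths 385.5 and 352.5 bp.

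Chromosome 4 resembled chromosome 3 in spacing, with 93 sites, a median gap of 415 kb and 3 of 92 gaps within 5 kb. Its longest stretch was 4.30 Mb, from 103064812 to 107365363. Median pileups were 26 and 29.13 and lengths 374 and 389 bp, the shortest replicate 1 median of the 10, and the o11 background of 2.26 was the highest replicate 2 median. Summits were a median of 47 bp apart, with 83.9% within 100 bp. Its most isolated site, from 98745940 to 98746227, lay 2072 kb from the next, with folds of 3.72 and 8.72. A group of 3 sites had summits from 131751010 to 131800612.

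Chromosome 5 held the most interior sites, 129, and the 2 strongest. It had a median gap of 237 kb, 13 gaps within 5 kb and a longest stretch of 3.39 Mb from 102307203 to 105700078. Its replicate 1 peaks were the longest of the 10, with a median of 438 bp, beside 399 bp in replicate 2, against 412.5 and 403 bp in its rest. The longest interior peak of replicate 1, 3661 bp from 76462391 to 76466051, overlapped a replicate 2 peak of 661 bp whose summit was 15 bp away. The fullest 50 kb held 4 sites, the first such group with summits from 74483927 to 74533629 and folds of 4.19 to 7.74 in replicate 1. The most isolated site, from 105699939 to 105700186, was 3120 kb from the next, and its WT pileups of 52 and 57.41 stood over o11 backgrounds of 17.0 and 13.0. Summits were a median of 39 bp apart and 84.5% were within 100 bp.

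Chromosome 6 had the loosest summit agreement, a median of 50.5 bp over 100 sites with 74.0% within 100 bp (64.6 to 81.6), beside 80.8% in its rest. The median gap was 286 kb and its longest stretch 2.83 Mb, from 66100839 to 68926719, and 4 of its 42 windows of 1 Mb were empty, the fewest of the 10. Of its 206 interior replicate 1 peaks 48.5% were shared (41.8 to 55.3). A group of 4 sites lay within 7.63 kb, with summits from 79711942 to 79719568, replicate 1 folds of 4.16 to 8.46, replicate 2 folds of 6.62 to 14.0 and summit distances of up to 357 bp. The most isolated site, from 77077377 to 77077675, had summits 657 bp apart between replicates. Its peaks were 299 bp in replicate 1 and 775 bp in replicate 2. Median pileups were 24 and 27.85.

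Chromosome 7 was the emptiest, with 24 of 44 windows of 1 Mb holding no site and 13 of its 36 gaps over 1 Mb. The median gap was 536 kb (quartiles 64.0 and 1667), and the longest stretch was 7.11 Mb, from 55207815 to 62318677. At its lower edge the site from 55207689 to 55207956 was the most isolated, 2691 kb from the next shared summit, with folds of 5.55 and 6.96. At its upper edge began a group of 3 sites with summits from 62318677 to 62366879 and pileups of 28 to 53 in replicate 1. The strongest of the 37 sites, from 77625181 to 77625572, had folds of 9.81 and 32.8. The highest replicate 1 pileup of the interior, 141, was at 62437713 to 62438081, over an o11 background of 28.3, for a fold of 4.85. Median pileups were 26 and 29.99, median lengths 392 and 359 bp, and 83.8% of summits were within 100 bp.

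Chromosome 8 had 111 sites spread without very long empty stretches. The median gap was 238 kb and the longest 2.43 Mb, from 59743998 to 62177286, the shortest maximum of the 10. Its median pileup in replicate 2, 30.85, was the highest of the 10, beside 26 in replicate 1, and lengths were 400 and 401 bp. A group of 4 sites with summits from 72277898 to 72309133 had replicate 2 folds of 5.82 to 23.2. The most isolated site, from 59743813 to 59744234, was 874 kb from the next. Summits were a median of 41 bp apart, with 81.1% within 100 bp.

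Chromosome 9 combined the longest stretch, 7.40 Mb from 51106319 to 58501907, with the fullest megabase, 66000001 to 67000000, which held 9 interior sites. In that megabase 28 replicate 1 peaks were called and 19 of them were not shared. A group of 4 within it had summits from 66512629 to 66533519 and folds of 5.25 to 12.6 and 3.69 to 13.8. The strongest of the 58 sites, from 60412357 to 60412781, had nearly equal folds of 14.9 and 14.4. The most isolated, from 61479068 to 61479572, was 1066 kb from the next and had folds of 2.94 and 8.61. Its median gap was 297 kb, its median pileups 26 and 28.28, its lengths 380.5 and 393 bp, and 87.9% of summits were within 100 bp (77.1 to 94.0), the highest share of the 10.

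Chromosome 10 had the tightest spacing, with a median gap of 148 kb (quartiles 33.8 and 504), although its longest stretch was 5.83 Mb, from 47190447 to 53016918. Its interior shared 72.6% of replicate 1 peaks (64.5 to 79.4), beside 67.3% in its rest, and in the replicate 2 list 57.3%. A group of 4 sites within 11.6 kb, with summits from 77273541 to 77285102, had replicate 1 folds of 6.24 to 14.6, replicate 2 folds of 5.39 to 20.8 and lengths of 625 to 1125 bp. Its strongest site, from 76601310 to 76601736, had folds of 10.2 and 30.9. Its most isolated one, from 56162442 to 56162752, was 661 kb from the next, with folds of 5.62 and 7.31. No replicate 1 pileup exceeded 47, the lowest maximum of the 10, and median pileups were 27 and 28.28. Median lengths were 392 and 367.5 bp, and summits were a median of 47.5 bp apart, with 81.6% within 100 bp.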

How the data were processed

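ChIP-seq peak lists of 15-day kernels were used, 1 per replicate, each the WT library over its o11 control. The submitters' processing notes name the build B73 RefGen_v3, MACS2 2.1.0 and Bowtie2 2.3.2, without filters or caller settings. The deposited tables give, per the file headers, position, length, summit, pileup (a coverage signal) and fold enrichment (a ratio). A pair of column names in the authors' files was damaged. They were read as the -log10 p-value and -log10 q-value of each peak, the second being equal to the score in the deposited summit list for 100% of peaks.

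The o11 background was computed as (pileup + 1) divided by the fold, minus 1. A Poisson tail at that level gave back the authors' -log10 p to within 0.02 at 100% of replicate 1 and 98.1% of replicate 2 peaks. Where several replicate 2 peaks overlapped 1 site, the nearest summit gave the partner, and 4 interior sites share a partner. Lengths end at the last peak, so positions near the bounds are approximate. Calculations used Python 3.11.15, numpy 2.4.6, pandas 2.3.3 and scipy 1.17.1, and were tested on simulated lists. Named regions are the 10 interior sites with the highest product of folds, and per chromosome the strongest site, the most isolated site, the longest empty stretch and the fullest 50 kb; the sites at the bounds; and, picked after their values were seen, those with extreme length, pileup, summit distance or lowest product. The members, measures and lists were chosen with earlier results of these data known, and the classes of spacing, pileup and fold after the lists were seen. A planned description of sequence at the summits was not run, since no genome of this build was used here.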

Additional observations from a re-analysis of the deposited data

How the results depend on the processing

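Of 90 alternative values, 53 stayed within the spread between replicates, the main interval or, for counts, 1.5 times, and 37 moved further. For the density ratio and the median gap that spread was only between the 2 row sets of the same overlaps. It was 0.013 for the log2 ratio and 1.42 kb for the gap, so small shifts counted as moved. For the pileup, fold and o11 background differences the spread exceeded the difference itself. A value could therefore count as within it with the difference gone. The log2 background difference was 0.15 with replicate 1 alone and 0.00020 with replicate 2 alone, and both counted as within. The alternatives below were fixed with the design. The exceptions are spacing of over 50 kb and the removal of chromosome 2, which were added after the data were seen. The number of interior sites was 1517 with the band from 0.25 to 0.60 and 522 from 0.35 to 0.50, and 1616 to 1719 without the other replicate. The log2 density ratio was -1.57 and -1.66 in these bands, -1.63 with reciprocal overlap of 50%, -1.67 with summits within 100 bp, -1.72 with o11 background under 10, and -1.48 to -1.44 with 1 replicate. It kept its sign in all of them. The median gap, 299 kb as reported, was 247 and 307 kb in the wide and narrow bands, 315 kb with reciprocal overlap, 383 kb with summits within 100 bp, 326 kb at a -log10 q of at least 5, 297 kb with replicate 2 rows, 327 kb with summits under 2 kb apart merged, and 157 to 169 kb with 1 replicate, where more peaks enter. The share of gaps within 5 kb fell to 5.90% with summits within 100 bp and 3.82% after merging, and was 10.6% to 10.7% with 1 replicate. The log2 pileup difference was 0.070 with summits within 100 bp, 0.074 with replicate 2 rows and -0.067 to 0 with 1 replicate. The log2 fold difference was -0.10 to -0.020 with 1 replicate. The log2 length difference was -0.17 to -0.091 with 1 replicate and -0.053 with spacing of over 50 kb, always negative. Summits within 100 bp were 85.7% at a -log10 q of at least 5. The share of interior replicate 1 peaks that recurred was 59.7% in the wide band, 52.7% with reciprocal overlap, 46.8% by summits, 63.7% at a -log10 q of at least 5, 53.8% for replicate 2 rows and 59.6% without chromosome 2. The cause of these shifts was not tested beyond what the settings do by construction. No paired analysis was possible because the peaks of a list were called against the o11 control of the same number, and 1 list per number leaves no unpaired comparison to set beside it. The number of reads per library is unknown, so how depth limits the calls was not measured.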

Other observations

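Unshared replicate 1 peaks of the interior were numerous in a few megabases. After the 19 in chromosome 9 from 66000001 to 67000000, the next were 14 of 15 peaks in chromosome 2 from 87000001 to 88000000, then 9 each in chromosome 2 from 120000001 to 121000000 (of 9 peaks), chromosome 5 from 82000001 to 83000000 (of 16) and chromosome 6 from 79000001 to 80000000 (of 14), and 8 of 11 in chromosome 2 from 106000001 to 107000000. Such windows were picked after their values were seen, and no test was run on them.

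Interior sites over a high o11 background were few, though a larger share than in the rest: 1.42% and 0.459% in replicate 1, and 0.763% and 0.190% in replicate 2. A background of 10 or more in either list lay under 14 interior sites on 8 chromosomes, and in both lists under 6. No test was run on this share. Their replicate 1 folds ran from 1.90 to 6.87 and their replicate 2 folds from 2.16 to 19.7. Their peaks were short, with median lengths of 318.5 and 291 bp, and their summits agreed to a median of 20 bp, against 40 bp over all interior sites.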
